A study of Homo sapiens with 16 samples.

Results

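The protein kinase C (PKC) and protein kinase D (PKD) family was followed through 10 genes chosen by name as targets of phorbol ester or their close relatives. They were the classical isoforms PRKCA and PRKCB, the diacylglycerol-responsive, calcium-independent isoforms PRKCD, PRKCE, PRKCH and PRKCQ (the nPKC class), the atypical isoforms PRKCI and PRKCZ, and the protein kinases D PRKD2 and PRKD3. All 10 were among the 35052 genes that the files could be summed to, and all 10 passed the filter on low counts, as did 17559 genes in all. The cells were K562, an established human leukaemia line, of wild-type genotype in every library. They were exposed to 25 nM phorbol 12-myristate 13-acetate (PMA), a treatment meant to drive them towards a megakaryocyte-like state, and RNA was sequenced before treatment (0 h), early (0.5, 1.5 and 3 h), at 6 h and late (24, 48 and 72 h). Each of the 8 time points had 2 libraries, 16 in all. Total RNA was depleted of ribosomal RNA, and the medium was renewed after 24 and 48 h. Every library after 0 h was treated, so time on PMA, time in culture and the changes of medium cannot be told apart. All libraries are of the same cell line, and the labels do not say whether the 2 libraries of a time point came from separate cultures. The p-values below then measure only the spread between these libraries.

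PKC isoforms are serine/threonine kinases that read the lipid second messenger diacylglycerol, which phospholipases C release at the membrane and diacylglycerol kinases remove. Classical isoforms need calcium and diacylglycerol, the nPKC class needs diacylglycerol alone, and atypical isoforms respond to neither and do not bind phorbol esters. PMA stands in for diacylglycerol on the C1 domains of the classical and nPKC isoforms and of PKD, which PKC phosphorylates in turn, and long exposure to it is known to deplete PKC protein in many cell types. Protein was not measured here, and every value below is of mRNA.

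The mRNAs of the family moved apart from each other after 3 to 6 h of PMA. At 6 h against 0 h, PRKCA, PRKCD, PRKCE, PRKCI, PRKCZ and PRKD3 were called higher and PRKCB, PRKCH and PRKCQ lower. By 72 h the largest difference in the family was in PRKCE, which rose 26.7-fold, while PRKCB and PRKCQ were still below their 0 h level and PRKCH had returned to it within the error of the fit. A gene was called when edgeR's quasi-likelihood test gave a Benjamini-Hochberg adjusted p under 0.05 over all 17559 genes. Levels are given as CPM, estimated reads relative to the size of the library after trimmed-mean-of-M-values scaling, and each fold change has its standard error (SE) from the fit with n = 2 libraries per time point.

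The number of members called against 0 h grew up to 6 h and not after it, and the share of all genes called also grew up to 6 h. At 0.5 h 0 of the 10 members were called in either direction (0.171% of all genes were), and 2 had an unadjusted p under 0.05. At 1.5 h 1 member, PRKCI, was called higher (9.05% of all genes were). At 3 h 3 members were called higher and 2 lower, against 21.5% and 20.5% of all genes. At 6 h 6 members were higher and 3 lower, against 27.8% and 29.4% of all genes. The counts at 24 h were again 6 higher and 3 lower, against 31.7% and 26.6% of all genes. At 48 h 5 members were higher and 3 lower, against 30.2% and 24.1%, and at 72 h 6 were higher and 2 lower, against 31.7% and 26.9%. Over the whole course 9 of the 10 members were called, all but PRKD3, where 82.9% of all genes were. Scaled to total gene counts, the members called were 2 higher and 4 lower at 3 h (without PRKD3, and with PRKCE and PRKD2 lower) and 4 higher and 4 lower at 6 h (without PRKCE and PRKD3, and with PRKD2 lower). These comparisons share the 0 h libraries. Between treated times, 4 members were higher and 3 lower at 24 h than at 6 h (30.8% and 25.8% of all genes), and 4 were higher and 1 lower at 72 h than at 24 h (13.9% and 12.4%). From 6 h on, the members called higher against 0 h are thus to be read against 27.8% to 31.7% of all genes called higher. Those called lower are to be read against 24.1% to 29.4%.

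The libraries held 27285773 to 54056289 estimated reads, and the members had between 24.0 reads, for PRKCE in its lowest library, and 24439 reads, for PRKCB in its highest. The second library at 0 h stood apart. The log2 difference between the 0 h libraries followed the GC content of the transcripts, with r = -0.72 across genes, and so did the log2 fold change of all genes at 0.5 h (r = -0.77) and, less, at 1.5 h (r = -0.43). The libraries of 72 h differed along GC in the same direction (r = -0.56), those of 24 h less (r = -0.33), and those of 3 h in the opposite one (r = 0.38). Among the members, the transcripts of PRKCD (56.5% GC) and PRKD2 (62.0%) had their higher 0 h value in that library, and those of PRKCI (38.9%) and PRKD3 (38.6%) their lower one. The 72 h libraries split these 4 members the same way. For those 4 members values after removal of each library's GC trend are given with their calls. Scaling to total gene counts in place of trimmed means moved the median log2 fold change of all genes by -0.28, -0.35 and -0.25 for the 3, 6 and 24 h comparisons, and by -0.16 for both 48 and 72 h. Of all genes called, 31.9% were then higher in place of 52.9% in the 1.5 h comparison, 27.4% in place of 51.2% in that of 3 h, 30.3% in place of 48.6% in that of 6 h, 38.6% in place of 54.4% in that of 24 h, and 44.3% in place of 55.7% in that of 48 h. Between treated times that share went from 54.4% to 65.5% for 24 h against 6 h, a median shift of 0.12, and from 52.7% to 65.1% for 72 h against 24 h. Of the members called in a comparison, none changed direction under that scaling. All levels are of bulk RNA, in which a smaller share of cells that express a gene and less of its RNA per cell cannot be told apart.

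**Figure D1:**
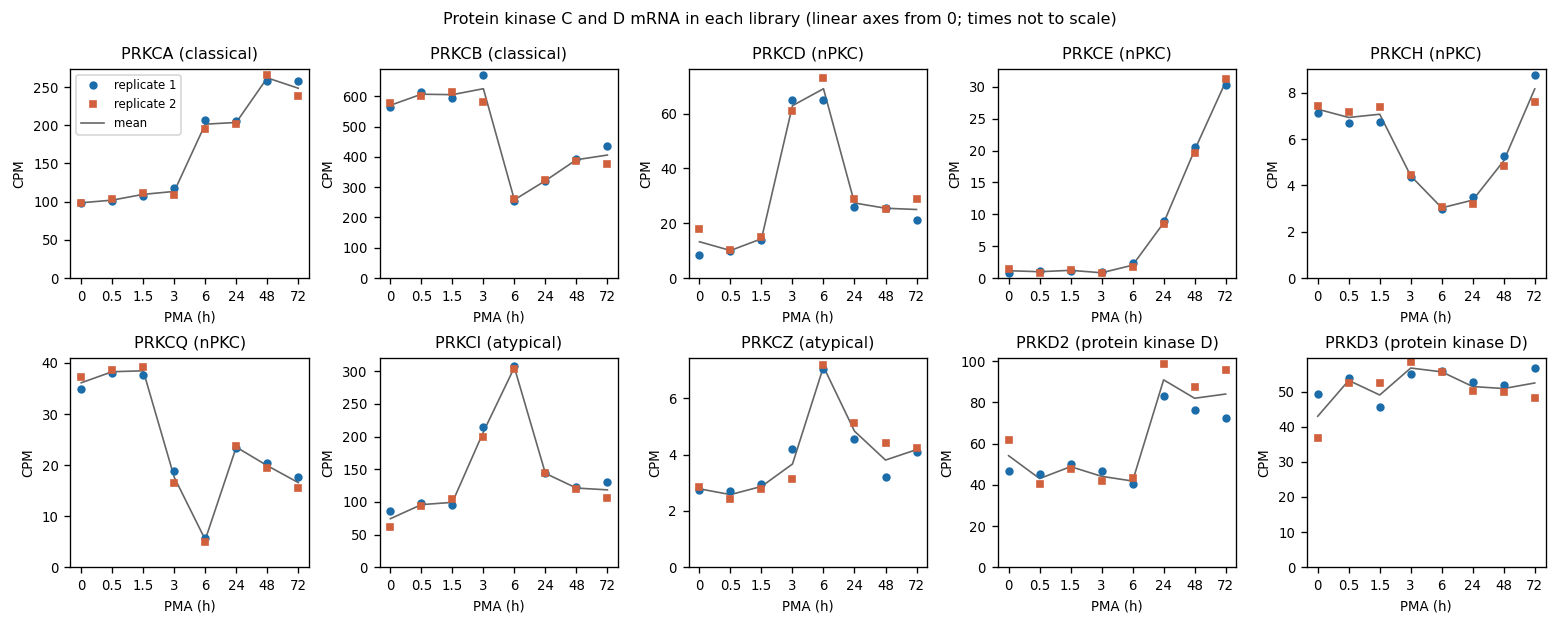
CPM (linear axes from 0) of each of the 10 genes in each of the 16 libraries against hours on PMA, with a line through the means of the 2 libraries. PRKCD and PRKCI peaked at 6 h, PRKCQ and PRKCB were lowest at 6 h, and PRKCE was highest at 72 h.

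The sequence upstream of the start sites is shown for 4 members that moved in opposite directions at 6 h: PRKCA and PRKCI, which were higher, and PRKCB and PRKCQ, which were lower. The windows run 5′ to 3′ on the gene's strand and end at the RefSeq start on GRCh38, or, for PRKCB (213 bases) and PRKCI (191 bases), where a GENCODE 29 exon begins. Capitals mark matches to any of 8 motifs searched on both strands.
PRKCA, GRCh38 chr17:66302363-66302612, + strand: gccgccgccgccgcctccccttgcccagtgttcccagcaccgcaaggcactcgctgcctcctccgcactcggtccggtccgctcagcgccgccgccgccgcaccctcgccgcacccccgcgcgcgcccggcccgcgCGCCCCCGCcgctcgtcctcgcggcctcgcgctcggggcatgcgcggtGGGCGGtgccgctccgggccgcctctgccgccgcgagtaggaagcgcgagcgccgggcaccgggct
PRKCI, GRCh38 chr3:170222174-170222364, + strand: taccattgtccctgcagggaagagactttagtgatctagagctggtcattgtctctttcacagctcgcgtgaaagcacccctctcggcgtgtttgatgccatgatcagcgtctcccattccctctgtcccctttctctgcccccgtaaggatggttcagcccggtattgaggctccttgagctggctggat
PRKCB, GRCh38 chr16:23835733-23835945, + strand: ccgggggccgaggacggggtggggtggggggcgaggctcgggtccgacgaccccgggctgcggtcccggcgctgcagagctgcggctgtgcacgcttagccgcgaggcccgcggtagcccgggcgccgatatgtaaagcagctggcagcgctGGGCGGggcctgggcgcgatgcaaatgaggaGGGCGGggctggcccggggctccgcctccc
PRKCQ, GRCh38 chr10:6580647-6580896, - strand: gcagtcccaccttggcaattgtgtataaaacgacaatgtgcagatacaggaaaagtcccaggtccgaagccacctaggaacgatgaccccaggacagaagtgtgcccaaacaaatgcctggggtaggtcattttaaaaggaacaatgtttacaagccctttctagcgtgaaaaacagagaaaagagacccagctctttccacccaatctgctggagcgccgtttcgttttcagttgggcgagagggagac
In PRKCA the capitals mark an EGR motif (GCGNGGGCG, on the opposite strand, at bases 114 to 106 before the start) and an SP1/KLF motif (GGGCGG, at bases 66 to 61). In PRKCB they mark 2 SP1/KLF motifs, at bases 98 to 93 and 67 to 62. The shown windows of PRKCI and PRKCQ hold none of the 8 motifs. The window of PRKCQ lies upstream of the gene's GENCODE 29 start, at base 6580301, so the bases next to that start are not shown. For 9 of the 16 windows searched, the first bases after the RefSeq start were found in a GENCODE 29 transcript of the gene. The PRKCQ window was not among these. RefSeq gave 16 start sites for the 10 members. Over the full 250 bases before each, the SP1/KLF motif was found in 13 of the 16 windows and in 9 of the 10 members, all but PRKCQ, against 42.6% of 35116 promoter windows of the same length. The EGR motif, which can overlap the SP1/KLF motif, was in 5 windows of 4 members (PRKCA, PRKCD, PRKCZ and PRKD3), against 8.42% of all windows. The cyclic AMP response element (TGACGTCA) was in 1 window, of PRKCZ, against 1.65% of all. An ETS motif (CCGGAAG) was in 1 window, against 8.52% of all. The motif of GATA factors, AGATAA, was in 1 (9.17% of all), and the RUNX motif, TGTGGT, in 1 (11.0% of all). The AP-1 motif (TGANTCA) and the E-box (CACGTG) were in 0 of the 16 windows, against 6.57% and 6.34% of all. All 4 members with an EGR match were among the 6 called higher at 6 h, and PRKCE and PRKCI, also called higher, had none. Of these calls, that of PRKD3 was lost in 7 alternative settings, that of PRKCE in 4 and that of PRKCZ in 1. Of all genes tested, 27.8% were called higher at 6 h. The share called higher among all genes with an EGR match was not counted, and a link between motif and change was not tested. The 5 windows with an EGR match were 75.2% to 82% GC, and the comparison with all windows was not matched for GC content. A match describes letters in a window and is not a binding site.

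The classical isoforms diverged, with PRKCA rising and PRKCB falling. PRKCA, the alpha isoform found in most tissues, had CPM of 98.2 and 98.9 at 0 h, 101 and 103 at 0.5 h, 107 and 112 at 1.5 h, 118 and 109 at 3 h. From there it went to 207 and 196 at 6 h, 206 and 201 at 24 h, 259 and 265 at 48 h, then 258 and 239 at 72 h. Its values stood in a low set up to 3 h and a high set from 6 h, with no library of one inside the range of the other. The log2 fold change was 1.03 (SE 0.08, edgeR adjusted p = 9.14e-08) at 6 h, 1.41 (SE 0.08) at 48 h and 1.33 (SE 0.08, adjusted p = 6.89e-09) at 72 h. At 3 h it was 0.20 (SE 0.08, edgeR adjusted p = 0.056), which 6 alternative settings called and scaling to total gene counts turned to -0.080 (adjusted p = 0.37). Under that scaling the 6 h change was 0.67 and still called. PRKCA was also higher at 72 h than at 24 h, by 0.29 (SE 0.08, adjusted p = 0.016), a call that was lost in 6 settings (adjusted p 0.070 to 0.241), among them without the first 24 h, the second 24 h or the first 72 h library.

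PRKCB, the isoform known from B-lymphocyte signalling, was the most abundant of the family per length at 0 h. Its CPM were 564 and 577 at 0 h, 614 and 599.9 at 0.5 h, 596 and 615 at 1.5 h, 670.0 and 580.0 at 3 h. Its later values were 256 and 261 at 6 h, 319 and 323 at 24 h, 394 and 387 at 48 h, then 435 and 377 at 72 h. All 8 libraries from 6 h on were below all 8 libraries up to 3 h. Against 0 h its log2 fold change was -1.14 (SE 0.10, edgeR adjusted p = 1.83e-07) at 6 h, -0.83 (SE 0.09) at 24 h, -0.55 (SE 0.09) at 48 h and -0.49 (SE 0.09, adjusted p = 0.00050) at 72 h. The level thus fell between 3 and 6 h and came part of the way back, with 24 h above 6 h by 0.31 (SE 0.09, adjusted p = 0.012) and 72 h above 24 h by 0.34 (SE 0.09, adjusted p = 0.017). These calls of the return were lost in 5 and 4 alternative settings. Without the first or second 6 h or the second 24 h library the first had an adjusted p of 0.076 to 0.113, and without either 24 h or the first 72 h library the second had 0.064 to 0.120. Over protein-coding transcripts the rise from 6 to 24 h was 0.19 (adjusted p = 0.056).

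Of the isoforms of the nPKC class, PRKCD rose early, PRKCE rose late, and PRKCH and PRKCQ fell. PRKCD, the delta isoform known from apoptosis and myeloid differentiation, had CPM of 8.41 and 18.1 at 0 h, 9.93 and 10.2 at 0.5 h, 13.8 and 14.9 at 1.5 h, 64.9 and 60.9 at 3 h. From there it went to 65.0 and 73.1 at 6 h, 25.9 and 28.8 at 24 h, 25.6 and 25.3 at 48 h, then 21.4 and 28.7 at 72 h. The 4 libraries of 3 and 6 h were above all others, and the libraries from 24 h on lay between them and the 0 h range, which was wide. The log2 fold change was 2.25 (SE 0.25, edgeR adjusted p = 6.69e-06) at 3 h, 2.38 (SE 0.25, adjusted p = 1.66e-06) at 6 h and 0.92 (SE 0.24, adjusted p = 0.0051) at 72 h. From 6 to 24 h PRKCD fell by 1.33 (SE 0.24, edgeR adjusted p = 0.00031). With the GC trends removed the changes were 2.33 at 3 h, 2.55 at 6 h and 0.89 at 72 h, and -1.61 from 6 to 24 h, all called. The sizes moved with the 0 h libraries. For the 3, 6, 24, 48 and 72 h comparisons in turn, the changes were 1.80, 1.93, 0.61, 0.50 and 0.47 without the first of them and 2.90, 3.04, 1.71, 1.60 and 1.57 without the second, all called. No call could be made at 1.5 h with both 0 h libraries (0.12, adjusted p = 0.79), but it was called higher without the second of them (0.77, adjusted p = 0.018), and at 0.5 h it was called lower without the first (-0.84, adjusted p = 0.0061).

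PRKCE, the epsilon isoform, had the largest change of the family. Its CPM were 0.83 and 1.48 at 0 h, 1.16 and 0.83 at 0.5 h, 1.09 and 1.34 at 1.5 h, 0.88 and 0.78 at 3 h. Its later values were 2.30 and 1.73 at 6 h, 8.88 and 8.43 at 24 h, 20.6 and 19.6 at 48 h, then 30.3 and 31.3 at 72 h. The time points from 6 h on did not overlap with each other, and each later one was higher. Fitted against 0 h, the log2 fold change was 2.91 (SE 0.23, edgeR adjusted p = 1.25e-07) at 24 h, 4.12 (SE 0.23) at 48 h and 4.74 (SE 0.24, adjusted p = 9.11e-10) at 72 h. PRKCE still rose between 24 and 72 h, by 1.83 (SE 0.19, adjusted p = 1.51e-05). The change at 6 h was 0.80 (SE 0.25, adjusted p = 0.015), and this call was lost when scaled to total gene counts (0.44, adjusted p = 0.156) with only the libraries of the 2 time points (adjusted p = 0.070), and without the first 0 h (0.44, adjusted p = 0.157) or the first 6 h library (0.61, adjusted p = 0.111).

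PRKCH, the eta isoform, had CPM of 7.15 and 7.43 at 0 h, 6.71 and 7.17 at 0.5 h, 6.75 and 7.40 at 1.5 h, 4.36 and 4.47 at 3 h. From there it went to 2.99 and 3.08 at 6 h, 3.52 and 3.22 at 24 h, 5.27 and 4.85 at 48 h, then 8.75 and 7.59 at 72 h. The low point was at 6 h and 24 h, and both 72 h libraries were above both 0 h libraries. The log2 fold change was -0.72 (SE 0.14, edgeR adjusted p = 0.00093) at 3 h, -1.26 (SE 0.15, adjusted p = 5.04e-06) at 6 h and 0.16 (SE 0.14, adjusted p = 0.32) at 72 h. At 1.5 h PRKCH was called lower only in counts rebuilt from TPM and transcript length (-0.84, edgeR adjusted p = 0.030). Its mean TPM was 8.79 at 0 h and 4.59 at 1.5 h, while its mean CPM was 7.29 and 7.08. From 24 to 72 h PRKCH rose by 1.28 (SE 0.14, adjusted p = 2.30e-05). Its difference at 48 h, -0.53 (SE 0.14, adjusted p = 0.0057), was not called without the second 48 h library (adjusted p = 0.057). PRKCH overlaps a protein-coding gene on the same strand, ENSG00000258989, with 10.1 to 33.6 CPM, so reads shared between them may have been split.

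PRKCQ, the theta isoform best known from T-cell receptor signalling, had the deepest fall of the family. Its CPM were 35.0 and 37.3 at 0 h, 38.0 and 38.6 at 0.5 h, 37.7 and 39.3 at 1.5 h, 18.8 and 16.4 at 3 h. Its later values were 5.80 and 4.99 at 6 h, 23.3 and 23.8 at 24 h, 20.4 and 19.4 at 48 h, then 17.6 and 15.5 at 72 h. The 6 h libraries were the lowest, and no library after 1.5 h reached the range of the earlier ones. Its log2 fold change was -1.03 (SE 0.11, edgeR adjusted p = 3.55e-06) at 3 h, -2.75 (SE 0.12, adjusted p = 2.54e-10) at 6 h, -0.62 (SE 0.10) at 24 h and -1.12 (SE 0.11, adjusted p = 6.91e-07) at 72 h. PRKCQ rose by 2.13 (SE 0.12, adjusted p = 8.05e-09) from 6 to 24 h and then fell by 0.50 (SE 0.11, adjusted p = 0.0033) from 24 to 72 h. The last of these was not called without the second 24 h library (adjusted p = 0.053) or with only the libraries of the 2 time points (0.055).

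**Figure D2:**
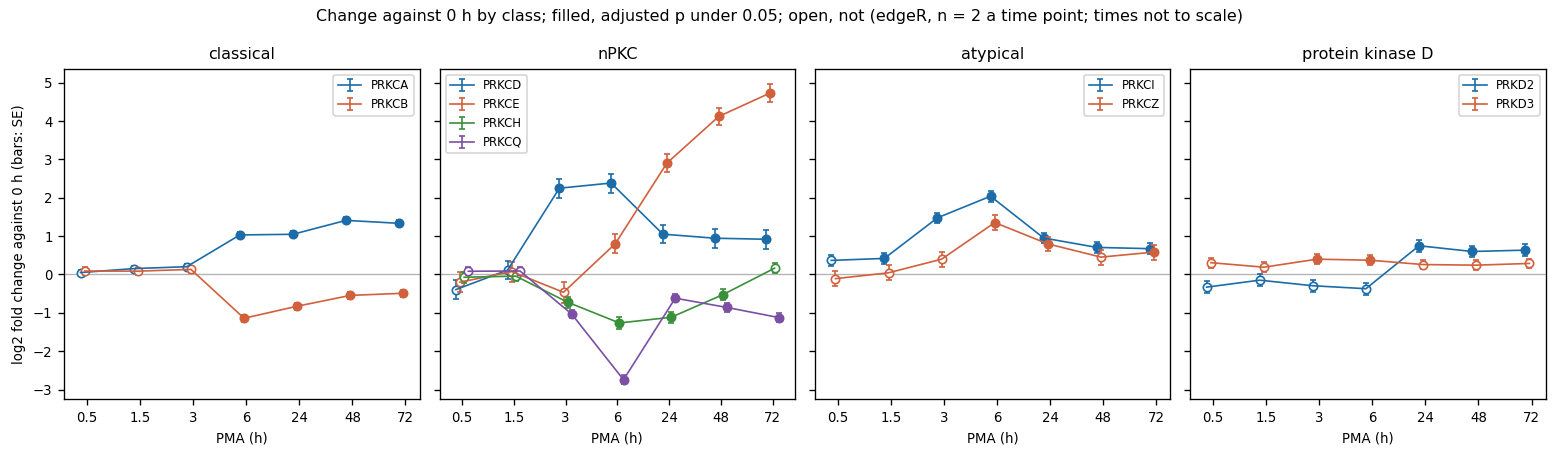
Log2 fold change against 0 h with its SE for each gene in 4 panels by class, at 7 treated times, filled where the adjusted p was under 0.05. The widest spread is in the nPKC class, from -2.75 for PRKCQ at 6 h to 4.74 for PRKCE at 72 h.

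The atypical isoforms, which PMA does not bind, were both highest at 6 h. PRKCI, the iota isoform and a part of the PAR cell polarity complex, had CPM of 86.7 and 61.9 at 0 h, 98.0 and 93.7 at 0.5 h, 94.7 and 104 at 1.5 h, 214 and 200.1 at 3 h. From there it went to 308 and 304 at 6 h, 144 and 144 at 24 h, 123 and 119 at 48 h, then 131 and 106 at 72 h. All later libraries were above both 0 h libraries, which differed from each other more than those of any other time point did. The log2 fold change was 1.48 (SE 0.14, edgeR adjusted p = 1.38e-06) at 3 h, 2.04 (SE 0.14, adjusted p = 2.48e-08) at 6 h and 0.67 (SE 0.14, adjusted p = 0.00072) at 72 h. With the GC trends removed it was 1.27, 1.79 and 0.47 at these times, all called. PRKCI fell by 1.09 (SE 0.14, adjusted p = 1.43e-05) from 6 to 24 h, and by 1.08 with the GC trends removed. The call at 1.5 h (0.42, SE 0.14, adjusted p = 0.0495) was lost in 19 alternative settings, with adjusted p from 0.053 to 0.435, among them GC trends removed (0.16, adjusted p = 0.054) and each that left out a 0.5, 1.5, 3, 6, 24 or 48 h library or the second 0 h library.

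PRKCZ, the zeta isoform, was among the lowest of the family. Its CPM were 2.73 and 2.83 at 0 h, 2.72 and 2.44 at 0.5 h, 2.97 and 2.76 at 1.5 h, 4.19 and 3.13 at 3 h. Its later values were 7.04 and 7.19 at 6 h, 4.55 and 5.11 at 24 h, 3.20 and 4.41 at 48 h, then 4.10 and 4.25 at 72 h. The 6 h libraries were above all others. Its log2 fold change was 1.35 (SE 0.19, edgeR adjusted p = 3.61e-05) at 6 h, 0.80 (SE 0.19) at 24 h and 0.58 (SE 0.19, adjusted p = 0.019) at 72 h. Counted over protein-coding transcripts alone the change at 6 h was 0.54 (SE 0.49, edgeR adjusted p = 0.37), the change at 24 h turned to -0.61 (adjusted p = 0.31) and that at 72 h was 0.28 (adjusted p = 0.64), so none of the 3 was called in that fit. The 72 h call was lost in 6 further settings: total scaling (0.43, adjusted p = 0.059), counts rebuilt from TPM and transcript length (0.091), only the 2 time points (0.109), without either 0 h library (0.058 and 0.075) and without the second 72 h library (0.058). The 24 h against 6 h call (-0.56, adjusted p = 0.021) was lost over coding transcripts (-1.14, adjusted p = 0.066) and without either 6 h or the first 24 h library (0.060 to 0.116). The opposite strand at PRKCZ holds FAAP20 (38.6 to 77.6 CPM), and whether the counting used strand is not given in the sources used here.

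Of the protein kinases D, PRKD2 was called higher from 24 h on, and PRKD3 was not called over the whole course. PRKD2, the isoform that PKC activates in many blood cell types, had CPM of 46.6 and 61.6 at 0 h, 45.5 and 40.6 at 0.5 h, 49.9 and 47.8 at 1.5 h, 46.5 and 41.8 at 3 h. From there it went to 40.4 and 43.3 at 6 h, 83.2 and 98.6 at 24 h, 76.3 and 87.7 at 48 h, then 72.3 and 95.8 at 72 h. All 6 libraries from 24 h on were above all 10 earlier ones. The log2 fold change was 0.75 (SE 0.15, edgeR adjusted p = 0.00084) at 24 h, 0.60 (SE 0.15, adjusted p = 0.0043) at 48 h and 0.63 (SE 0.15, adjusted p = 0.0027) at 72 h, and 24 h was above 6 h by 1.12 (SE 0.15, adjusted p = 3.7e-05). At 6 h the change was -0.37 (SE 0.15, adjusted p = 0.055) and not called, but 8 alternative settings called PRKD2 lower there. Among them were total scaling (-0.74, adjusted p = 0.00085), protein-coding transcripts (-0.44, adjusted p = 0.030) and leaving out the first 0 h library (-0.56, adjusted p = 0.0099). With the GC trends removed the 6 h change was -0.060 (adjusted p = 0.53), while those at 24, 48 and 72 h were 0.74, 0.54 and 0.72 and that from 6 to 24 h was 0.80, all called. Without the second 72 h library the 72 h change was 0.42 (adjusted p = 0.039). In counts rebuilt from TPM and transcript length the 24, 48 and 72 h differences were not called (0.42, 0.40 and 0.56, adjusted p 0.195, 0.230 and 0.087), and the 48 h call was lost without the first 0 h library (adjusted p = 0.051).

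PRKD3, the nu isoform, had CPM of 49.3 and 36.7 at 0 h, 53.9 and 52.4 at 0.5 h, 45.7 and 52.4 at 1.5 h, 54.9 and 58.5 at 3 h. Its later values were 55.7 and 55.5 at 6 h, 52.8 and 50.1 at 24 h, 52.0 and 49.8 at 48 h, then 56.8 and 48.1 at 72 h. The lowest library was the second at 0 h, and the highest mean was 1.32 times the lowest. Its log2 fold change was 0.40 (SE 0.13, edgeR adjusted p = 0.021) at 3 h and 0.37 (SE 0.13, adjusted p = 0.022) at 6 h, and the whole course was not called (adjusted p = 0.170). Scaled to total gene counts these changes were 0.12 (adjusted p = 0.50) and 0.0022 (adjusted p = 0.995). Both calls were also lost in counts rebuilt from TPM and transcript length (0.15 and 0.16), with only the libraries of the 2 time points (adjusted p 0.167 and 0.077), and without the second 0 h library (0.20, adjusted p = 0.215, and 0.17, adjusted p = 0.244). Without the first 0 h library they were 0.63 and 0.60, both called. With the GC trends removed the 3 and 6 h changes were 0.18, called, and 0.10, not called (adjusted p = 0.126), and the whole course was called (adjusted p = 0.013). Without the first 0 h library the PRKD3 changes at 24, 48 and 72 h were 0.49, 0.48 and 0.52. Over protein-coding transcripts they were 0.51, 0.51 and 0.57, all called (edgeR adjusted p 0.024, 0.026 and 0.014). The 72 h change was also called by DESeq2's test (0.34, adjusted p = 0.035), with DESeq2's size factors, with no low-count filter and with at least 10 counts in every library. With the GC trends removed the 3 changes were 0.0026, 0.084 and 0.076, none called (edgeR adjusted p 0.97, 0.20 and 0.24). NDUFAF7 lies on the opposite strand at PRKD3 (12.8 to 23.1 CPM).

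Behind these gene totals, the mix of annotated transcripts differed between members. PRKCA has 1 protein-coding transcript in the files, PRKCA-202 (8964 nt), which held 81.7% to 94.7% of the gene's reads in each library but 21.2% to 57.5% of its TPM, the abundance per length. PRKCA-202 was at 14.9 and 13.4 TPM at 0 h, 14.1 and 12.6 at 3 h, 24.2 and 20.3 at 6 h, 31.2 and 27.6 at 24 h, then 42.3 and 38.4 at 72 h. In TPM the coding transcript was thus above all earlier libraries at 6 h and higher again at 24 and 72 h. The gene's CPM were level between 6 and 24 h. So were counts over protein-coding transcripts alone (0.03, SE 0.08, edgeR adjusted p = 0.76), which rose from 24 to 72 h by 0.35 (SE 0.08, adjusted p = 0.0053). The short retained-intron transcript PRKCA-205 (321 nt) was at 7.62 and 5.13 TPM at 0 h, 12.7 and 23.7 at 3 h, 21.4 and 21.5 at 6 h, then 18.4 and 8.71 at 72 h. In counts rebuilt from TPM and transcript length, which weigh such short transcripts more, PRKCA was 0.61 lower at 24 h than at 6 h on the log2 scale (-0.61, edgeR adjusted p = 0.0017), against a difference of 0.02 (adjusted p = 0.87) in reads. A few reads on a transcript of 321 nt carry much TPM, which limits the precision of that value.

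PRKCB was read almost wholly from the long PRKCB-211 (8010 nt) and the shorter PRKCB-202 (2707 nt), which held 70.4% to 81.4% and 17.3% to 27.0% of its reads. At 0 h PRKCB-211 was at 86.7 and 77.4 TPM and PRKCB-202 at 66.2 and 75.2. At 6 h they were at 29.5 and 26.8, and at 29.4 and 26.9, TPM. Both transcripts were thus lowest at 6 h and had nearly equal TPM there. At 72 h PRKCB-211 was at 62.3 and 52.3 TPM and PRKCB-202 at 64.1 and 59.7. PRKCI was read mainly from its coding transcript PRKCI-201, at 26.9 and 17.6 TPM at 0 h and 76.2 and 67.4 at 6 h. PRKCQ-201 went from 17.4 and 16.2 TPM at 0 h to 2.32 and 1.21 at 6 h. PRKCD-202, a coding transcript of PRKCD, was at 1.23 and 4.68 TPM at 0 h and 18.6 and 17.6 at 6 h. The libraries of 6 h were above those of 0 h for the coding PRKCD-201 too. The longest listed coding transcript of PRKCE, PRKCE-201 (5749 nt), went from 0.14 and 0.17 TPM at 0 h to 6.55 and 6.17 at 72 h. PRKCH-201 was at 2.51 and 2.34 TPM at 0 h and at 0.94 and 1.30 at 72 h, while PRKCH-211 was at 0.26 and 0.093 and then at 3.24 and 1.82. PRKCH-211 was thus above PRKCH-201 in both 72 h libraries, but the split between them also differed within time points. PRKCH-211 was at 0.74 and 0 TPM at 24 h. It was above PRKCH-201 in the second 1.5 h library (1.95 against 1.17 TPM) and the first 48 h library (1.42 against 0.96 TPM). A change of leading transcript tied to the return of the gene's CPM is therefore not shown. In PRKCZ only 13.3% to 56.1% of reads lay on protein-coding transcripts, and PRKCZ-215, listed as a processed transcript, was at 0.68 and 1.64 TPM at 0 h and 2.50 and 2.30 at 6 h. The short coding transcript PRKD2-203 (669 nt) was at 12.6 and 48.3 TPM at 72 h, the widest gap among the listed transcripts of PRKD2 there. PRKD3-202 was at 8.41 and 4.62 TPM at 0 h and 8.07 and 7.40 at 6 h. The differences between transcripts of a gene are descriptions and were not tested.

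**Figure D3:**
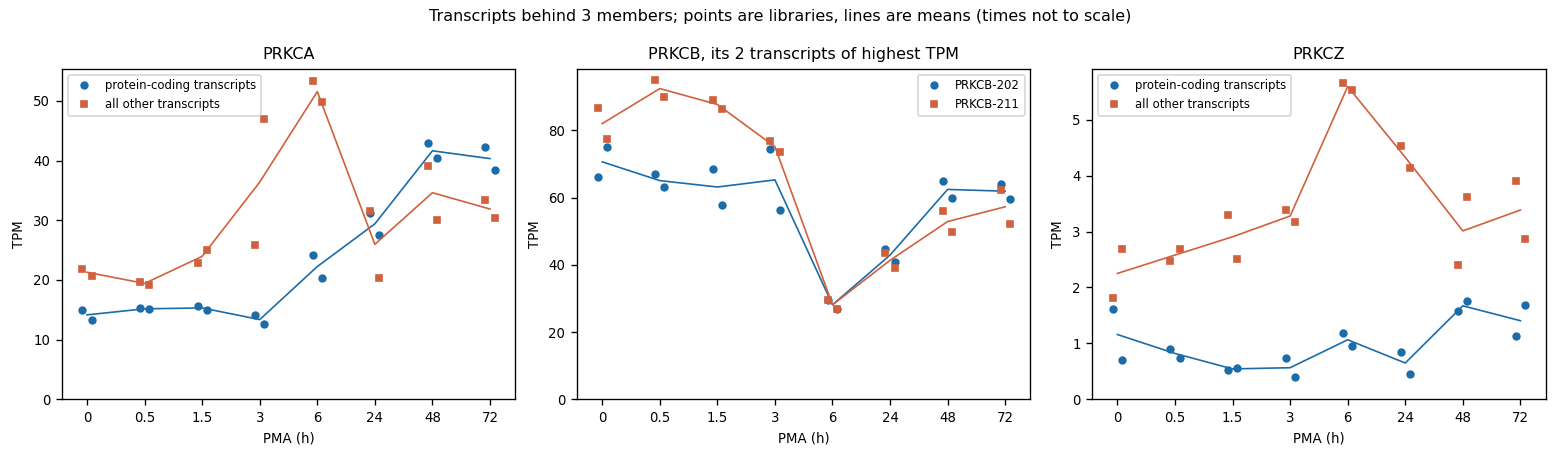
TPM in each library (points) and the means (lines) against hours on PMA, for coding and other transcripts of PRKCA and PRKCZ and for the transcripts PRKCB-202 and PRKCB-211. The coding PRKCA transcript was highest at 48 and 72 h, both PRKCB transcripts were lowest at 6 h, and the 6 h peak of PRKCZ was in its other transcripts.

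Per length, in TPM summed over protein-coding transcripts, the order of the family changed during the course. At 0 h PRKCB led with 165 ± 4.84 TPM (SD, n = 2), or 57.8% of the family. It was followed by PRKD2 (42.1 ± 10.3), PRKCI (22.2 ± 6.58), PRKCQ (17.2 ± 0.31), PRKCA (14.9 and 13.4 in its libraries), PRKD3 (11.2 ± 0.42), PRKCD (7.31 ± 3.36) and PRKCH (4.14 ± 0.16). PRKCZ (1.16 ± 0.65) and PRKCE (1.02 ± 0.60) came last, and their libraries overlapped, which no other neighbours in the order did.

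At 6 h PRKCI led with 71.8 ± 6.24 TPM, above PRKCB with 61.5 ± 4.17, and PRKCD was the third with 30.7 ± 0.08. PRKCA (22.2 ± 2.76) and PRKD2 (21.8 ± 1.39) overlapped, as did PRKCZ (1.06 ± 0.16) and PRKCE (0.98 ± 0.22) at the end of the order. At 72 h PRKCB led again with 128 ± 9.25 TPM, followed by PRKD2 (68.8 ± 31.2). PRKCA (40.3 ± 2.76) and PRKCI (37.0 ± 5.31) overlapped, and so did PRKCD (14.6 ± 3.08), PRKD3 (13.7 ± 2.41) and PRKCE (13.3 ± 2.72) as neighbours. PRKCE had moved from the last place to within the range of PRKCD and PRKD3, and PRKCZ was last with 1.41 ± 0.40.

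The classical isoforms made up 64.5% and 61.1% of the family's coding TPM at 0 h, 37.7% and 36.6% at 6 h, then 55.7% and 46.8% at 72 h. The atypical share was 9.99% and 6.36% at 0 h, 32.9% and 31.8% at 6 h, then 13.2% and 10.2% at 72 h, so the 6 h libraries were apart from both. The ratio of PRKCB to PRKCA in coding TPM was 11.3 and 12.1 at 0 h, 2.66 and 2.88 at 6 h, then 3.19 and 3.17 at 72 h. It was thus lower at 6 and 72 h than at 0 h in both libraries.

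**Figure D4:**
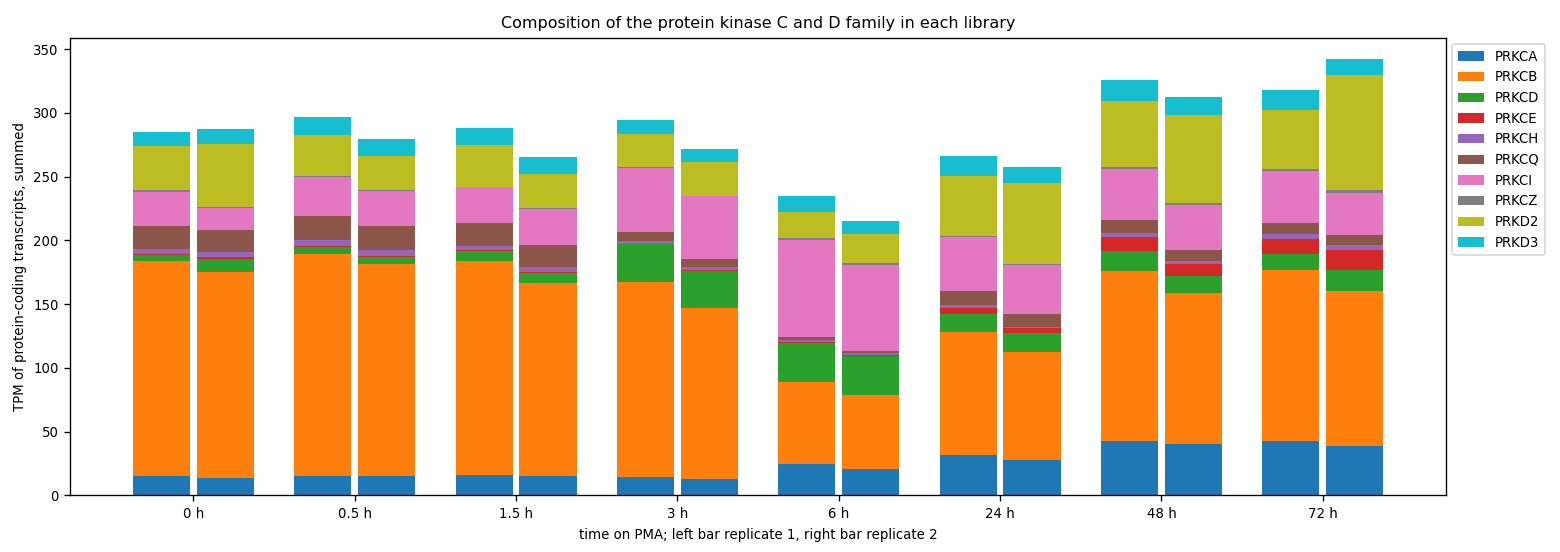
TPM of protein-coding transcripts (axis from 0) stacked by gene for each of the 16 libraries, in pairs by time. The PRKCB band shrinks and the PRKCI band widens at 6 h, where PRKCI was at 71.8 TPM and PRKCB at 61.5.

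Across the 8 time points, the means of PRKCD and PRKCI moved most alike of all pairs of members (r = 0.94 of log2 CPM), followed by PRKCA with PRKCE (0.91). PRKCQ and PRKCZ moved most oppositely (r = -0.92). Outside the family the genes most alike in time course, of 10353 compared, were taken as the 2 highest r over the 8 time points for each called member. They were MAP7 and ADAMTS3 for PRKCA (r = 0.99 for both), GOT1 and ARV1 for PRKCB (0.99 and 0.98), and ZFAND2A and CSNK1D for PRKCD (1.00 and 0.99). For PRKCE they were TBX3 and CACNA1E (1.00 for both), for PRKCH ZNF304 and CD84 (0.97 and 0.96), and for PRKCQ RALGAPA2 and PDE11A (1.00 and 0.99). RESF1 and PPP2CB were most like PRKCI (0.99 for both), CSNK1G1 and IQGAP1 most like PRKCZ (0.99 for both), and DOLK and DBN1 most like PRKD2 (0.99 for both). In level these genes differed widely: TBX3 went from 1.44 CPM at 0 h to 79.5 at 72 h, and IQGAP1 from 262 to 1349 at 6 h. All values come from the same 16 libraries, and the genes were selected as the highest, so r describes the likeness only.

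Around the family, 8 lists of 86 genes were read at 6 and 72 h, beside an all-gene median log2 fold change of 0.00 and -0.03. Of the 5 other relatives of the kinases, 2 rose and 2 fell at 6 h and 3 fell at 72 h (list medians -1.05 and -0.44). PKN3, a kinase related to PKC, went from 50.9 and 62.7 CPM at 0 h to 16.9 and 16.5 at 6 h and 14.1 and 17.5 at 72 h (-1.84, SE 0.14, adjusted p = 7.59e-08 at 72 h). PKN2 rose by 1.01 at 6 h. PRKD1, the remaining D isoform, had at most 30.4 reads in a library.

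The other receptors of diacylglycerol and phorbol ester moved in both directions: of 10, 3 rose and 4 fell at 6 h, and 3 rose and 3 fell at 72 h (medians -0.31 and -0.17). RASGRP3, an exchange factor that activates Ras and Rap when it binds diacylglycerol, was at 26.0 and 29.8 CPM at 0 h, 53.3 and 56.2 at 6 h, then 211 and 191 at 72 h (2.85, SE 0.13, adjusted p = 3.21e-10). UNC13D, a vesicle priming factor, went from 238 and 298 CPM to 83.1 and 79.3 at 6 h, and RASGRP2 from 8.19 and 9.95 to 1.88 and 1.74. UNC13A rose by 2.20 at 72 h (SE 0.20, adjusted p = 3.76e-07). RASGRP3 and UNC13A thus stood above their 0 h levels at 72 h, and UNC13D below.

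Of 9 diacylglycerol kinases tested of 10 listed, 2 rose and 2 fell at 6 h, and 4 rose and 2 fell at 72 h (medians 0.07 and -0.05). DGKI, which turns diacylglycerol into phosphatidic acid, was at 0.092 and 0.064 CPM at 0 h, at or under the floor of 3 reads (0.092 and 0.097 CPM), and at 88.5 and 74.9 CPM at 72 h (adjusted p = 1.97e-12). DGKG rose from 0.092 and 0.193 CPM at 0 h to 12.2 and 10.5 at 72 h (adjusted p = 1.35e-09), and DGKZ, the most abundant, was at 111 and 143 CPM at 0 h and 89.7 and 114 at 72 h. DGKI and DGKG were the members of the list with the largest changes at 72 h. Of 12 phospholipases C, 3 rose and 5 fell at 6 h and 3 rose and 5 fell at 72 h (medians -0.47 and -0.12). PLCB1 went from 4.48 and 2.99 CPM at 0 h to 0.78 and 0.66 at 72 h, and PLCH1 from 1.69 and 1.90 to 0.13 and 0.18 at 6 h. PLCG2 is not described, since its reads lay nearly all on a transcript that holds a 7SK RNA pseudogene. It is still counted among the 12 and among the 5 that fell at 72 h, and it enters both medians.

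Of 11 priming kinases, chaperones and phosphatases of PKC, 6 rose and 4 fell at 6 h and 3 rose and 3 fell at 72 h (medians 0.23 and 0.13). PHLPP2, a phosphatase that dephosphorylates the hydrophobic motif of PKC, went from 16.8 and 16.1 CPM at 0 h to 81.8 and 80.1 at 6 h and 28.9 and 27.2 at 72 h (2.30, SE 0.10, adjusted p = 1.78e-10 at 6 h). Its paralogue PHLPP1 fell by 0.94 at 72 h (SE 0.09, adjusted p = 1.07e-06), and MLST8, a subunit of the mTOR complexes that phosphorylate PKC, fell by 1.25 at 6 h and by 1.27 at 72 h. The chaperone HSP90AB1 was at 2300.0 and 2393 CPM at 0 h and 4716 and 4717 at 6 h.

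Of 19 PKC scaffolds and substrates, 5 rose and 8 fell at 6 h, and 8 rose and 3 fell at 72 h, and the median went from -0.83 to 0.44. AKAP12, a scaffold that binds PKC and is its substrate, had the largest rise among them, from 3.59 and 2.77 CPM at 0 h to 130.0 and 141 at 6 h and 803 and 762 at 72 h (7.94, SE 0.16, adjusted p = 1.84e-13). NRGN, a calmodulin-binding substrate, was lower at 6 h (-1.06) and higher at 72 h (3.58). RACK1, the receptor for activated C kinase, had 1242 and 1688 CPM at 0 h and 645 and 618 at 72 h (-1.21, SE 0.14, adjusted p = 3.62e-06). Of 9 PKD substrates, 6 rose and 2 fell at 6 h and 7 rose and 2 fell at 72 h, with medians of 0.83 and 0.60.

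HDAC7, a class IIa histone deacetylase that PKD phosphorylates, went from 143 and 196 CPM at 0 h to 35.5 and 37.1 at 6 h (-2.22, SE 0.15, adjusted p = 2.34e-08). RIN1 rose by 3.46 and SSH1, a cofilin phosphatase, by 2.38 at 72 h, and CTTN, which encodes cortactin, by 1.01 at 6 h. Of 10 kinases of the RAF-MEK-ERK cascade, which PKC activates, 6 rose and 3 fell at 6 h and 5 rose and 4 fell at 72 h (medians 0.38 and 0.12). RPS6KA3 rose by 1.63 at 6 h and 1.61 at 72 h, and RPS6KA2 fell by 1.84 at 6 h and rose by 3.24 at 72 h. Adjusted p-values of the lists are edgeR's over all 17559 genes. The counts are to be read against 27.8% of all genes higher and 29.4% lower at 6 h, and 31.7% and 26.9% at 72 h.

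**Figure D5:**
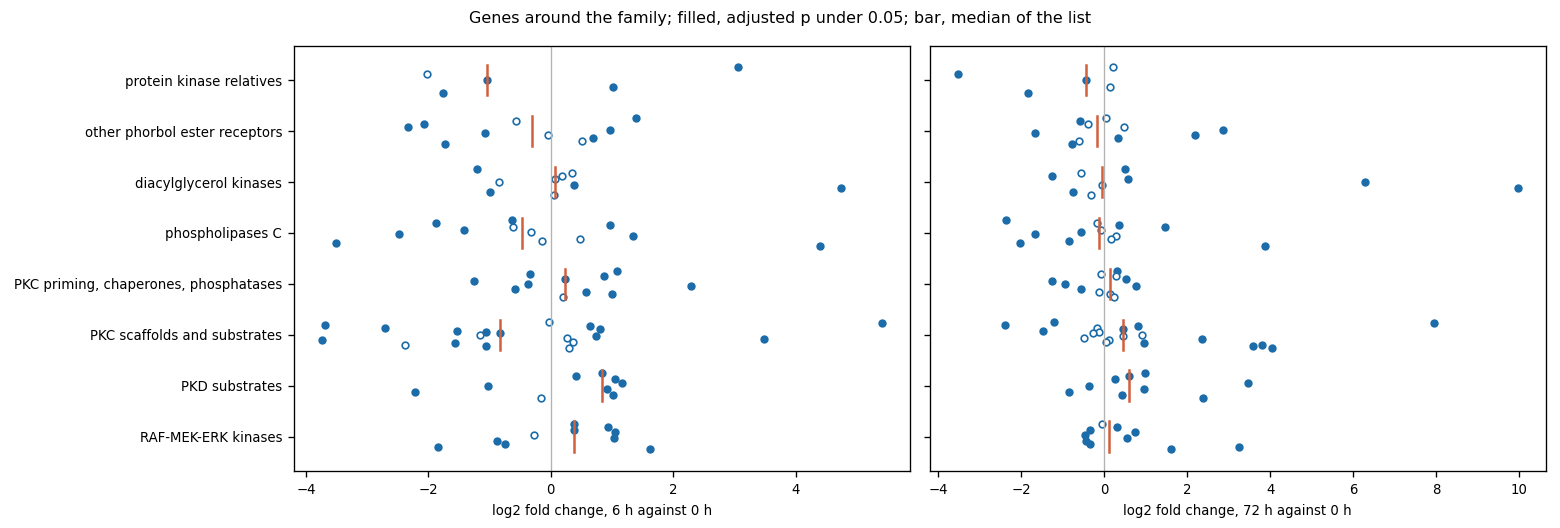
Log2 fold change at 6 h (left) and 72 h (right) against 0 h for each tested gene of the 8 lists, 1 point a gene, filled where the adjusted p was under 0.05, with the median of each list as a bar. The scaffolds and substrates of PKC have a median of -0.83 at 6 h and 0.44 at 72 h.

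The labelled cell type was checked on marker lists. The 11 K562 and erythroid genes were all above 1 TPM in some library, and their summed level was 2415 to 5581 TPM, led by HBG2 (1502 to 3270 TPM). Of 6 T and B lymphocyte genes, 3 reached 1 TPM in any library, with a summed level of 15.6 to 75.5 TPM, nearly all of it CD3D (14.0 to 72.1 TPM), while CD3E was at most 0.40 TPM and CD2 and MS4A1 at most 0.06. Of 6 granulocyte and monocyte genes 3 did (54.9 to 93.2 TPM in sum), led by LYZ (35.2 to 92.2 TPM), with ELANE at most 0.07. Of 6 epithelial and fibroblast genes 5 did (67.7 to 136 TPM in sum), among them COL1A1 (3.23 to 99.7 TPM), with KRT5 at most 0.01. The part of other cell types in the values of the family was not tested.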

How the data were processed

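Total RNA of 16 K562 libraries, ribosomal RNA removed, was sequenced at 8 time points. Per the file headers, the deposited tables give for each of 177456 Ensembl transcripts an estimated count of reads and TPM, which the authors had computed by transcript quantification. The submitters' processing notes name Trim Galore 0.4.3, Salmon without a version, and builds hg19 and hg38 without their roles. The transcriptome release, strand setting and bias corrections are not given in the sources used here.

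Estimated counts were summed to genes with GENCODE 29 (94.1% of transcripts matched, and 3.01% to 3.75% of reads did not) and rounded to whole numbers. Genes passing edgeR's filterByExpr defaults were fitted over all 8 time points with edgeR 4.0.16 in R 4.3.3 (trimmed-mean scaling, quasi-likelihood F-tests, common biological coefficient of variation 0.124). DESeq2 1.42.0, other scalings, filters, counts, GC-trend removal, a replicate block and leaving out each library were tried as alternatives. The members, lists and comparisons were chosen with earlier results of these data known. All members are named. From each list come the gene of highest mean TPM and the called genes of largest change at 72 h (2 genes) and 6 h (1 gene) with a mean of at least 1 CPM. Some genes that this rule takes are not reported here. Likeness used genes with at least 5 CPM, and transcripts were considered with at least 10% of a member's TPM at a time point; those described were picked from them after their values were seen. On simulated counts for 72 h against 0 h over 17559 genes, with 200 changed, the fit recovered 52% of 2-fold and 85% of 4-fold changes, and 7 of 144 calls were false. In the data 31.7% of all genes were called higher and 26.9% lower at 72 h against 0 h. Whether the recovery and false-call rates hold with that many genes called, or with the GC trends of the libraries, was not tested. Depth was 27285773 to 54056289 estimated reads per library, and the floor of 3 reads equals 0.0623 to 0.128 CPM. That floor and the SEs cover the spread between libraries and counting only.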

Additional observations from a re-analysis of the deposited data

How the results depend on the processing

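The numbers of members called at 3, 6, 24, 48 and 72 h against 0 h, at 24 h against 6 h and over the whole course stayed within 1.5 times the reported ones under every alternative run. The cause was not tested for those that did not. At 0.5 h the count of 0 became 1 with no low-count filter and ranged from 0 to 4 when libraries were left out, with 4 (PRKCD, PRKCI, PRKD2 and PRKD3) without the first 0 h library. At 1.5 h the count of 1 became 0 with DESeq2's size factors, with total scaling, with only the libraries of the 2 time points, over protein-coding transcripts and with GC trends removed, and ranged from 0 to 2 with libraries left out. For 72 h against 24 h the count of 5 became 2 with only those libraries, and ranged from 2 to 6 with libraries left out: it was 3 without the first 24 h, 2 without the second 24 h and 3 without the first 72 h library. In counts rebuilt from TPM and transcript length the 1.5 h count stayed at 1, but with another member. PRKCH was called lower there (-0.84, edgeR adjusted p = 0.030), and PRKCI was not called (0.38, adjusted p = 0.175). Same-numbered libraries' deviations correlated at r = -0.29 to 0.60 over 28 pairs of time points, above 0.1 in 24 of them. Since 4 were not, the replicate numbers were not taken as pairs. With the replicate number as a block, 10 members were called at 6 h in place of 9, since PRKD2 then had -0.37 (edgeR adjusted p = 0.038), and no other member's call changed.

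Across the members' 9 contrasts, 48 settings gave the opposite sign, nearly all for changes that were not called. A called change that turned was PRKCZ at 24 h, and one that was called only after turning was PRKCA for 24 h against 6 h, at -0.61 (edgeR adjusted p = 0.0017) in counts rebuilt from TPM, -0.058 with GC trends removed and -0.041 to 0.041 with libraries left out. Counts rebuilt from TPM also gave -0.040 for PRKCA at 0.5 h, -0.042 and -0.060 for PRKCB at 1.5 and 3 h, 0.0069 for PRKCE at 0.5 h, -0.26 for PRKCH at 72 h and -0.45 for 24 h against 6 h, 0.14 for PRKD2 at 72 h against 24 h, and -0.15, -0.054, -0.028 and -0.049 for PRKD3 at 1.5, 48 and 72 h and at 72 h against 24 h. Total scaling gave -0.080 for PRKCA at 3 h, -0.0036 and -0.15 for PRKCB at 1.5 and 3 h, -0.011 for PRKCE and -0.045 for PRKCZ at 1.5 h, and 0.0063 for PRKD3 at 24 h against 6 h. Protein-coding transcripts alone gave -0.023 for PRKCE at 1.5 h, 0.023 and 0.065 for PRKCH at 0.5 and 1.5 h, and for PRKCZ -0.66, -0.75 and -0.61 at 1.5, 3 and 24 h and 0.88 at 72 h against 24 h. GC trends removed gave 0.11 for PRKCZ and -0.0098 for PRKD3 at 0.5 h, 0.033 and 0.15 for PRKD2 at 0.5 and 1.5 h, and -0.085 for PRKD3 at 1.5 h. Leaving out libraries gave ranges of -0.84 to 0.26 and -0.33 to 0.77 for PRKCD at 0.5 and 1.5 h and -0.36 to 0.060 at 72 h against 24 h, -0.56 to 0.27, -0.29 to 0.54 and -0.83 to 0.0040 for PRKCE at 0.5, 1.5 and 3 h, and -0.11 to 0.020 for PRKCH, -0.010 to 0.10 for PRKCZ, -0.33 to 0.063 for PRKD2 and -0.011 to 0.42 for PRKD3 at 1.5 h. For 72 h against 24 h they were -0.33 to 0.071 for PRKD2 and -0.10 to 0.14 for PRKD3. Members with few reads, such as PRKCE with 24.0 in its lowest library, are limited in precision by depth.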
